A study of Saccharomyces cerevisiae with 4 samples.

Results

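The members of this set are the 53 genes of budding yeast (Saccharomyces cerevisiae) that encode proteins of the large ribosomal subunit and carry an intron, running from RPL2A to RPL43B. They are 53 of the 5659 genes annotated in the deposited files and were chosen by gene identity, not by signal: a probe counted when it was a data probe not marked for exclusion and its primary annotation was 1 of the 53 open reading frames (ORFs). They lie on 14 chromosomes and carry 269 probes, with 3 to 9 probes for each gene: 102 upstream, 97 in the first 500 bp of the ORF, 47 in the rest of the ORF and 23 downstream. Of the 53, 48 form 24 pairs of A and B copies, and the single-copy genes are RPL25, RPL28, RPL30, RPL32 and RPL39.

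Ribosomal protein genes are among the most actively transcribed genes of growing yeast, and are switched together by Rap1, Fhl1, Ifh1 and Sfp1 at sites upstream of the ORF. Most A and B copies are relics of an ancient whole-genome duplication and encode nearly the same protein. Although few yeast genes have introns, many ribosomal protein genes do, and in these the intron usually lies close to the 5′ end, so that most of the coding sequence follows it. Nup170p and Nup157p are paralogous proteins of the inner ring of the nuclear pore complex.

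The study mapped these nucleoporins on the genome by chromatin immunoprecipitation and microarray (ChIP-chip). There were 4 libraries, 1 in each group: Nup157-9xMyc in a wild-type background, Nup170-9xMyc in a wild-type background, and Nup170-9xMyc in strains labelled sir4∆::natR and yku70∆::natR. Sir4p is a silencing protein, and Yku70p is part of the Ku heterodimer at chromosome ends. By their labels, all strains were MATa and carried his3∆1 and leu2∆0 together with ura3∆0 and lys2∆0, and hphR marked the tag. They were grown in YPD at 30 °C to an OD600 of 1 and fixed with 1% formaldehyde for 1 h, with chromatin sheared to about 400 bp. The ChIP DNA was labelled with Cy5 and the whole cell extract with Cy3. Each library was hybridised on arrays in 2 hybridisations, which nothing in the labels ties to separate cultures, so they are repeat measurements of 1 library. No group has a replicate library and no untagged strain was analysed here, so no test between groups was possible, and precision is limited by how few arrays there are.

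Values are log2 ratios of ChIP over extract signal, centred so that the median nuclear probe of each hybridisation is 0, and the value of a gene is the mean over its probes and both hybridisations. Between 41409 and 41430 nuclear probes were used in each library, and 5525 to 5527 genes had at least 2 probes. The lower-side SD of all probes was 0.50 for Nup157, against 0.18 to 0.22 for the 3 Nup170 libraries, and the 2 hybridisations correlated at 0.57 for Nup157 and at 0.63 to 0.70 for Nup170 over all probes. As checks of the labels, extract signal at SIR4 was lower in the library labelled sir4∆ than in the others at 15 of 15 probes (median log2 difference -0.42), yet all 15 stayed above blank spots. Extract signal at YKU70 in the library labelled yku70∆ differed by only -0.02 from the other libraries, with 7 of 7 probes above blank. LYS2 was above blank at 16 of 16 probes in each Nup170 library and at 0 of 16 in the Nup157 library, although all strains are labelled lys2∆0, so the Nup157 and Nup170 wild-type strains differed at this locus. Both deletion libraries are called by their labels below.

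Nup170 gave signal above the genome median at every one of the 53 genes in wild type. The median gene value was 0.59 (lowest 0.08, highest 1.06), where the median of all genes was -0.02. The median was 0.72 in the first hybridisation and 0.44 in the second. A value of 0.5 (1.41-fold) or more was reached by 35 of the 53 members, against 3.15% of all genes. In both hybridisations it was reached by 15 members, against 100 of 5526 genes. All 53 also had at least 1 probe inside a region that the authors marked as bound, against 14.6% of all genes.

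In the library labelled yku70∆ all 53 members again lay above 0, with a median of 0.47 (0.51 and 0.43 in the 2 hybridisations). There, 21 members reached 0.5, against 2.37% of all genes, and 52 held a probe marked as bound, against 14.6%. In the library labelled sir4∆ the median was 0.38 (0.30 and 0.46) and all 53 were above 0. In that library 11 members reached 0.5, against 1.5% of all genes, and 47 held a marked probe, against 15.6%.

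With Nup157, 48 of the 53 members lay above 0 and the median was 0.30 (0.22 and 0.38). Here 12 reached 0.5, against 9.05% of all genes, so that the share past this level exceeded the genome's by less than in the Nup170 libraries. A bound mark was present at 21 members, against 17.6% of all genes. Across the whole study, 42 members stayed above 0 in all 8 hybridisations, as did 675 of 5525 genes.

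**Figure D1:**
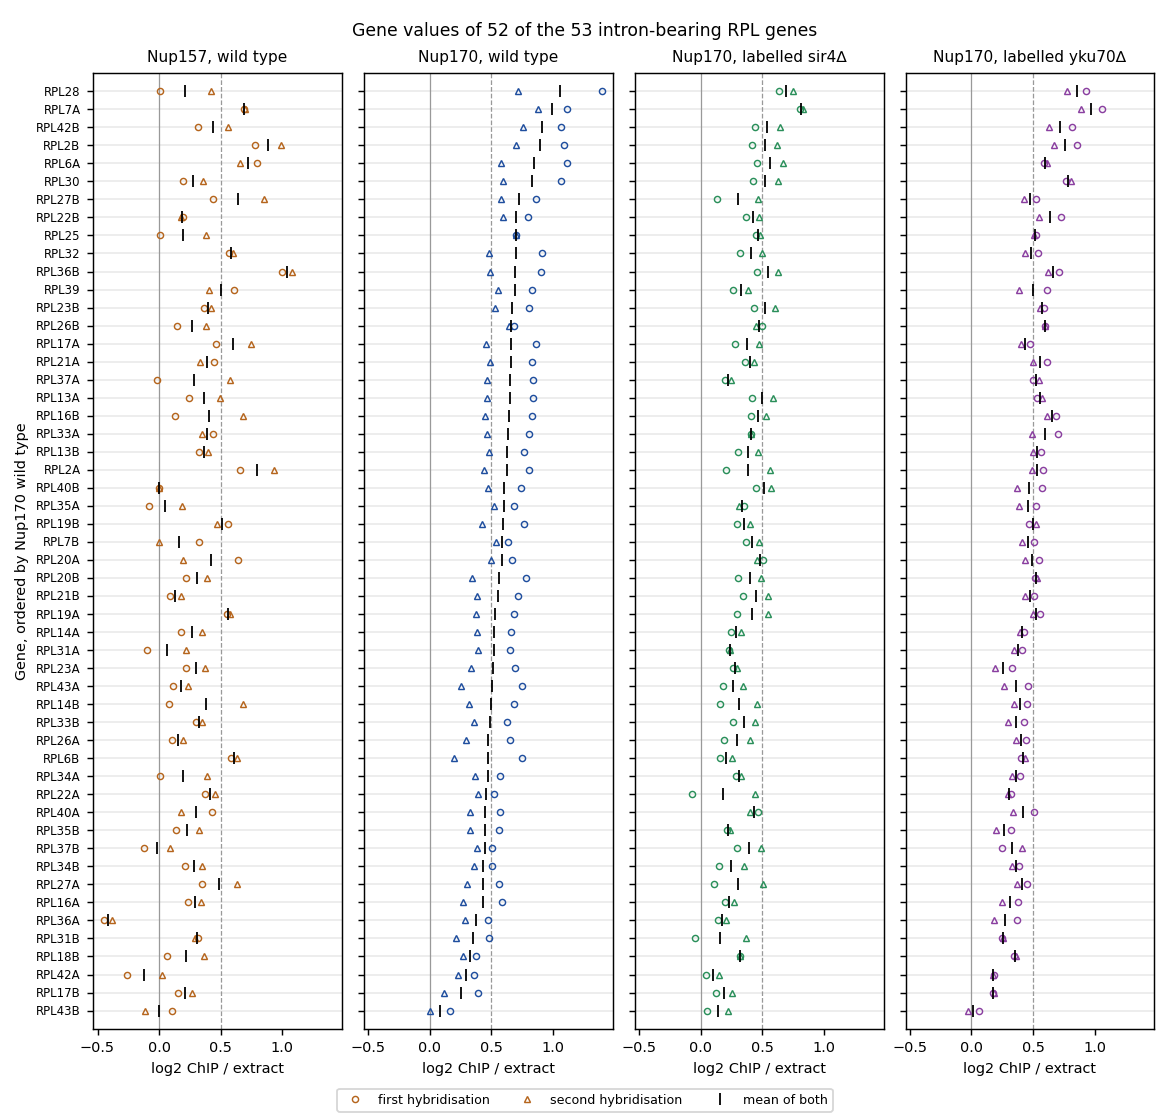
Gene values (x axis, log2 ChIP over extract) of 52 of the 53 genes (y axis, ordered by Nup170 in wild type) in the 4 libraries. Open circles and triangles are the first and second hybridisations, black ticks their mean, and dashed lines mark 0.5. All Nup170 means lie above 0, from 0.08 for RPL43B to 1.06 for RPL28 in wild type, and RPL36A lies lowest for Nup157 at -0.41.

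The highest member for Nup170 in wild type was RPL28 (YGL103W, chromosome 7, probes from 310578 to 311667 in the files' coordinates), whose protein is the one altered in classic cycloheximide-resistant mutants. RPL28 stood at 1.39 and 0.72 in the 2 hybridisations of that library, at 0.63 and 0.75 in the library labelled sir4∆, at 0.93 and 0.78 in that labelled yku70∆, and at 0.005 and 0.42 with Nup157. It was thus the top or second member in each Nup170 library and in the lower part of the list for Nup157, where 36 members were higher.

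RPL7A (YGL076C, chromosome 7, 364318 to 366743), which hosts the small nucleolar RNA gene SNR39, was the only member at or above 0.5 in all 8 hybridisations. Its gene value reached 0.69 with Nup157, 0.99 with Nup170 in wild type, 0.82 in the library labelled sir4∆ and 0.97 in that labelled yku70∆. These values rest in large part on 1 upstream probe, at position -271 bp from the ORF start (chromosome 7, 366239 to 366298), which read 3.94, 3.48, 3.01 and 3.59 in the same order. The next probes on either side, at -476 and 83 bp, read 0.62 and 0.36 for Nup170 in wild type and -0.01 and -0.14 for Nup157. At the high probe the extract signal was below the genome median by 1.10 to 2.19 on the log2 scale, though not near blank, and the ChIP signal was above its median by 1.78 to 2.00. Without that probe RPL7A fell to 0.23 for Nup157, 0.64 for Nup170 in wild type, 0.51 in the library labelled sir4∆ and 0.60 in that labelled yku70∆, and 20 members were then higher in the Nup170 wild-type library.

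The other members among the 5 highest for Nup170 in wild type were RPL42B at 0.91, RPL2B at 0.90 and RPL6A at 0.84. RPL2B and RPL6A were, with RPL7A, the 3 members found among the 10 highest in all 4 libraries, a place that in some libraries rests on a single probe of the gene. The Rpl2 protein sits near the peptidyl transferase centre. RPL2B (YIL018W, chromosome 9, 316111 to 317964) read 1.09 and 0.70 for Nup170 in wild type, 0.42 and 0.62 in the library labelled sir4∆, 0.86 and 0.67 in that labelled yku70∆, and 0.78 and 0.99 with Nup157. RPL2B was highest at the probe at -410 bp for Nup170 in wild type, where it read 2.15, and at the probes at 809 and 1169 bp for Nup157. Without its highest probe RPL2B read 0.69 for Nup170 in wild type, where 13 members were then higher, and 0.38 in the library labelled sir4∆, where 27 were. Of the 5 probes of RPL6A, 1 probe 945 bp from the ORF start was near blank in the extract in all 4 libraries.

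The low end was shared as well. RPL36A, RPL42A and RPL43B were among the 10 lowest members in all 4 libraries. RPL43B (YJR094W-A, chromosome 10, 606666 to 608403) was lowest for Nup170 in wild type at 0.08 and in the library labelled yku70∆ at 0.02, where RPL17B and RPL42A, both at 0.18, were next. Its 4 upstream probes, the farthest at -1308 bp, read -0.59 to 0.03 for Nup170 in wild type, while its 2 ORF probes read 0.60 and 0.83. The low gene value of RPL43B thus rests on the upstream probes annotated to it. RPL17B at 0.25 and RPL42A at 0.29 were next lowest for Nup170 in wild type. RPL42A (YNL162W) was lowest in the library labelled sir4∆, at 0.10, before RPL43B at 0.14 and RPL31B at 0.16.

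For Nup157 the extremes were the copies of 1 pair. RPL36B (YPL249C-A, chromosome 16, 75800 to 76636) was the highest member at 1.04 (1.00 and 1.08), and RPL36A (YMR194W, chromosome 13, 650927 to 652042) the lowest at -0.41 (-0.44 and -0.38). RPL2B at 0.88, RPL2A at 0.79, RPL6A at 0.73 and RPL7A at 0.69 followed RPL36B, and RPL42A at -0.12 and RPL37B at -0.02 were next lowest. Both were picked as the extremes of these same hybridisations, so the lack of overlap between them there is no separate support for their difference.

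In the library labelled sir4∆ the 5 highest members were RPL7A, RPL28 at 0.69, RPL6A at 0.56, RPL36B at 0.54 and RPL42B at 0.54. The value of RPL6A rests on its near-blank probe, which read 1.33 there, and without it RPL6A was at 0.37 with 28 members higher. In that labelled yku70∆ they were RPL7A, RPL28 at 0.85, RPL30 at 0.79, RPL2B at 0.76 and RPL42B at 0.72. In both, the 3 members listed after RPL28 differed from their neighbours among them by less than the SD of 0.060 to 0.084 that separates the 2 hybridisations of a gene.

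Among the other single-copy genes, RPL30, whose protein binds its own transcript and blocks its splicing, read 1.06 and 0.59 for Nup170 in wild type, 0.43 and 0.62 in the library labelled sir4∆, 0.77 and 0.80 in that labelled yku70∆, and 0.19 and 0.36 with Nup157. RPL25, whose protein stands at the exit of the peptide tunnel, read 0.70 in both hybridisations of Nup170 in wild type, and its means were 0.46, 0.51 and 0.19 in the library labelled sir4∆, that labelled yku70∆ and Nup157. RPL32 stood at 0.70, 0.41, 0.49 and 0.59, and RPL39, whose small protein lines the exit tunnel, at 0.69, 0.32, 0.50 and 0.50, in the order Nup170 wild type, labelled sir4∆, labelled yku70∆ and Nup157. RPL25, RPL28 and RPL30 were higher in each Nup170 library than with Nup157, and the ranges of hybridisations did not overlap for any of the 3. Against Nup170 in wild type alone, 33.3% of all genes were lower with Nup157 in all 4 pairings of hybridisations. The share of all genes lower than in each Nup170 library was not counted. For RPL32 and RPL39 the hybridisations of Nup157 overlapped those of Nup170 in wild type.

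The order of the members held better within Nup170 than between the nucleoporins. Over the 53 genes Pearson's r between libraries was 0.93 for wild type and the library labelled yku70∆, 0.88 for both labelled deletions, and 0.83 for wild type and the library labelled sir4∆. It was 0.40 to 0.50 between Nup157 and each Nup170 library. Over all genes r was 0.92, 0.88 and 0.88 for the same Nup170 libraries, and 0.35 to 0.45 with Nup157. The contrast was thus not particular to the members. These are descriptions over genes that share probes and array design. Within a library, both hybridisations correlated at 0.68 (Nup157), 0.80 (Nup170 wild type), 0.70 (labelled sir4∆) and 0.89 (labelled yku70∆).

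The profile along the gene differed between the Nup157 and Nup170 libraries. For Nup170 in wild type the signal was present along the whole gene and rose towards its 3′ end. Member probes had medians of 0.46 upstream, 0.51 in the first 500 bp of the ORF, 0.80 in the rest of the ORF and 0.75 downstream. Over all genes the medians at these places were -0.11, -0.02, 0.03 and 0.10. Within genes, ORF probes exceeded upstream probes in 67.3% of 49 members (median 0.13), against 75.1% of 4575 genes (0.17). The rise from upstream into the ORF was thus not particular to the members. Every one of the members' 97 probes at the ORF start and 47 in the rest of the ORF was above 0. Over all genes 47.0% and 56.9% of probes at these places were. The libraries labelled sir4∆ and yku70∆ showed the same order of upstream, start and rest, with medians of 0.21, 0.36 and 0.56 and of 0.32, 0.43 and 0.68.

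For Nup157 the start of the ORF was near the genome median. Its member probes had a median of 0.06 in the first 500 bp, between 0.26 upstream and 0.78 in the rest of the ORF. At the ORF start 53 of 97 were above 0, a share near the 55.4% over all genes. In the rest of the ORF 43 of 47 were above 0, against 48.8% over all genes. Both hybridisations gave this shape, with medians of 0.09 and 0.03 at the ORF start and of 0.65 and 0.78 in the rest.

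Finer bins placed the changes along the gene. For Nup170 in wild type the median was 0.58 from 500 to 250 bp before the ORF, 0.37 in the last 250 bp before it, 0.40 up to 0.2 of the ORF length, 0.67 between 0.4 and 0.6, and 0.84 beyond 0.8, a bin with 18 probes. Signal fell to 0.13 between 250 and 500 bp after the ORF and to -0.03 in the next 250 bp. For Nup157 the same bins gave 0.39, 0.28, -0.07, 0.33 and 0.82, then -0.07 and -0.02. The rise from the start to the 3′ part was present without the last ORF bin, which holds few probes, since the bin from 0.6 to 0.8 read 0.71 for Nup170 in wild type and 0.65 for Nup157.

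**Figure D2:**
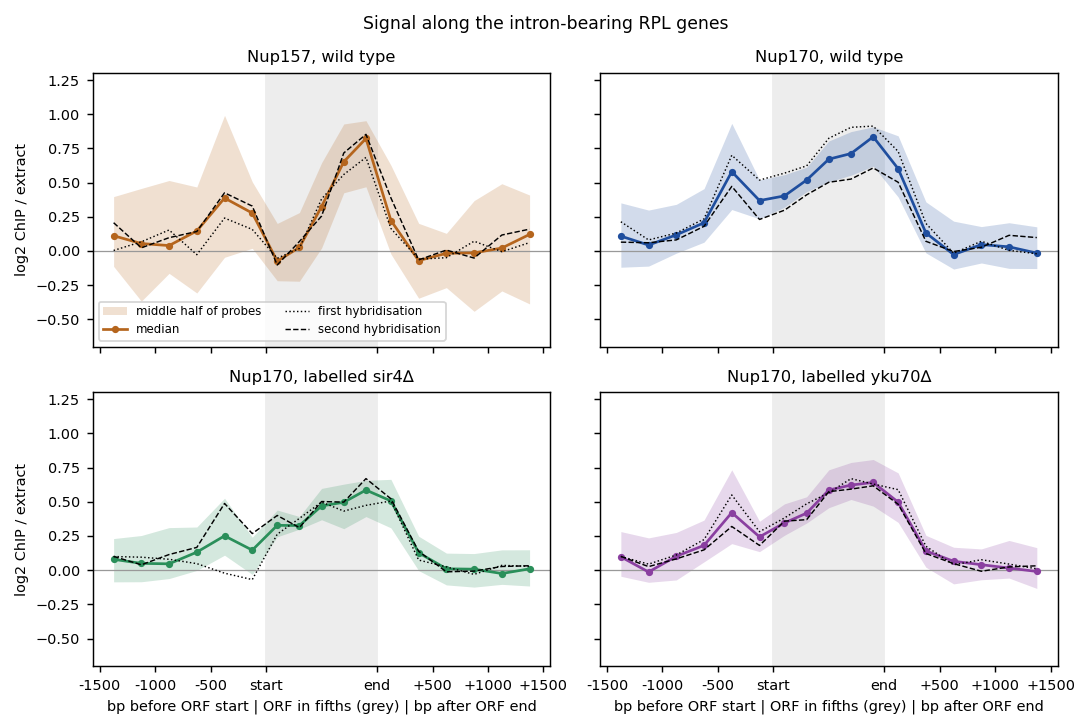
Median log2 ChIP over extract (y axis) of all probes around the 53 genes, by distance before the ORF, place in the ORF (grey) and distance after it (x axis). Coloured lines are medians, bands the middle 50% of probes, dotted and dashed lines the medians of the first and second hybridisations. Nup157 is near 0 at the ORF start (-0.07) and at 0.82 near its end, and Nup170 in wild type is at 0.40 and 0.84.

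The same contrast held within genes. In 37 members with probes in both places, the rest of the ORF exceeded its first 500 bp by a median of 0.67 for Nup157, in 33 of 37 members and in both hybridisations in 30. For Nup170 the median excess was 0.22 in wild type (28 of 37 members), 0.12 in the library labelled sir4∆ (27) and 0.16 in that labelled yku70∆ (31). The rest was the higher place in 75.7%, 73.0% and 83.8% of these members, against 62.3%, 58.2% and 58.3% of all genes, and for Nup157 in 89.2% against 47.1%. The excess was larger for Nup157 than for Nup170 in wild type in 31 of the 37, by a median of 0.50. These excesses are in log2 units and were not scaled to the lower-side SD of probes, 0.50 for Nup157 and 0.22 for Nup170 in wild type. Set against Nup170 in wild type at the same place, Nup157 was lower at the ORF start in 36 of 37 members (median -0.43) and in the rest of the ORF in 19 (median -0.05).

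Chosen after their values were seen, RPL13B, RPL19B and RPL2A showed the steepest rise for Nup157. They went from 0.08 to 1.64, from 0.14 to 1.47 and from 0.29 to 1.60. Each of these genes has a single probe in the rest of the ORF. The downstream probes of RPL13B, at 1107 and 1317 bp, read -0.33 and -0.35 for Nup157. In RPL13B Nup170 in wild type went from 0.44 to 1.11. RPL17A, whose protein lines the exit tunnel, ran the other way, from 0.91 at the start to 0.08 at its single probe in the rest of the ORF for Nup157, and from 0.71 to 0.55 for Nup170 in wild type.

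**Figure D3:**
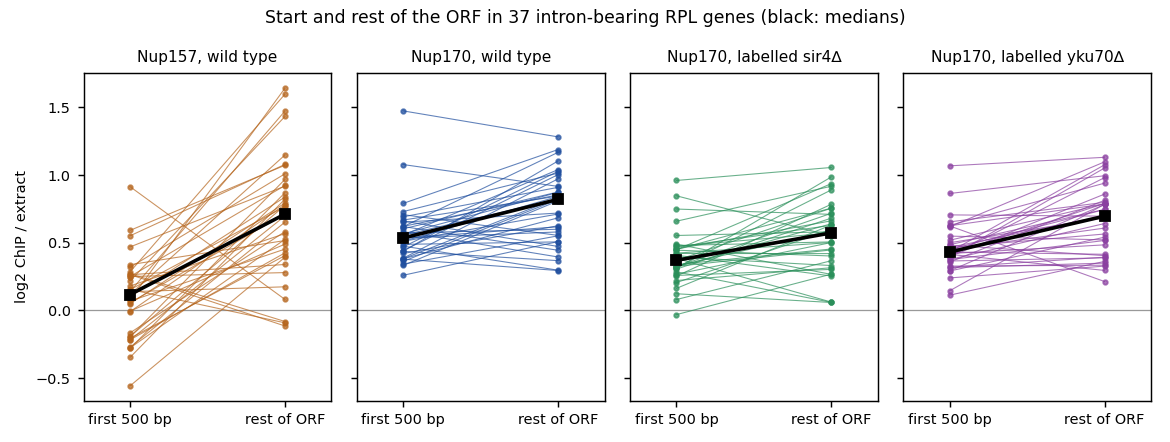
Mean log2 ChIP over extract (y axis) in the first 500 bp and in the rest of the ORF for the 37 members with probes in both (coloured lines, 1 for each gene) and their medians (black squares), by library. For Nup157 the medians go from 0.12 to 0.71 and for Nup170 in wild type from 0.54 to 0.82.

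Large-subunit genes without an intron differed at the ORF start. Their 29 probes in the first 500 bp had a median of 1.02 for Nup157, with 28 above 0, where the members had 0.06. For Nup170 in wild type they had 0.85 against the members' 0.51, and upstream 0.30 against 0.46. In 6 such genes with both places, the rest of the ORF exceeded the start by 0.09 for Nup157 (3 of 6). For Nup170 the same 6 genes had an excess of 0.20 in wild type (6 of 6), 0.22 in the library labelled sir4∆ and 0.21 in that labelled yku70∆, so the rise with Nup170 was not particular to the members. Intron-bearing genes of the small subunit resembled the members, with an excess of 0.65 for Nup157 in 25 genes (22 of 25) and of 0.24 for Nup170 in wild type. Over 66 intron-bearing genes of other kinds the excess was -0.01 for Nup157 and 0.09 for Nup170 in wild type (46 of 66), and over 4453 genes it was -0.03 and 0.05.

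The extract channel gave values for these places too. Extract signal of the members was 0.03 above the genome median at the ORF start and 0.18 below it in the rest of the ORF in the Nup157 library, and ChIP signal 0.13 and 0.57 above. For Nup170 in wild type, extract stood at -0.02 and -0.09 at these places, and ChIP at 0.50 and 0.60. Downstream, where the median ratio was 0.75, extract stood at -0.94 and ChIP at -0.09, both below their genome medians. Downstream ChIP was -0.32 and -0.23 in the libraries labelled sir4∆ and yku70∆. Over all genes, downstream extract was -0.53 and ChIP -0.42 for Nup170 in wild type. Removal of the trend of ratio with intensity left an excess of the rest over the start of 0.52 between probe medians for Nup157, against 0.72 without that step. The positions of the introns, and the base composition of the probes, were not used here, and their part in the result was not tested.

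Over whole genes, the members lay close to the other ribosomal protein genes for Nup170 and below them for Nup157. The medians for Nup170 in wild type were 0.59 for the members, 0.57 for 26 large-subunit genes without an intron, 0.60 for 37 small-subunit genes with an intron and 0.61 for 16 small-subunit genes without. For Nup157 they were 0.30, 0.59, 0.39 and 0.50 in that order. The gap between members and intronless large-subunit genes for Nup157 was -0.31 in the first hybridisation and -0.26 in the second. With normexp background correction of the raw intensities the gap was -0.44 for Nup157, and for Nup170, where it lay between -0.03 and 0.02 with both hybridisations and between -0.064 and 0.013 with either alone, it became -0.14 in wild type, -0.18 in the library labelled sir4∆ and -0.24 in that labelled yku70∆.

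Intron-bearing genes outside the ribosome lay near the genome median. The 93 measured had medians of -0.04 for Nup157, -0.02 for Nup170 in wild type, -0.005 in the library labelled sir4∆ and 0.0004 in that labelled yku70∆. TEF4, a translation elongation factor gene, was their highest for Nup170 in wild type at 0.76. Of 10 genes of regulators of ribosomal protein genes, 0 reached 0.5 in any library, and RAP1 was the highest at 0.15 and HMO1 the lowest at -0.13 for Nup170 in wild type. The 35 genes of large-subunit assembly factors had a median of 0.06 in that library, with NOG2, a GTPase of late assembly, highest at 0.40 and RRS1 lowest at -0.15.

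The 5 genes whose 8 hybridisation values lay closest to the members' median profile, by Euclidean distance, were RPS23B (0.10), HSC82 (0.13), ALD5 (0.24), INA1 (0.25) and RPS18A (0.25). RPS23B and RPS18A encode small-subunit proteins, HSC82 a constitutive Hsp90 chaperone and ALD5 a mitochondrial aldehyde dehydrogenase. HSC82 had 0.35 for Nup157 and 0.59 for Nup170 in wild type.

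The A and B copies of a protein were compared within each library. Neither letter was higher as a rule: A exceeded B in 12 of 24 pairs for Nup157, in 14 for Nup170 in wild type, in 13 in the library labelled sir4∆ and in 14 in that labelled yku70∆. In 9 of the 24 pairs the sign was the same in all 8 hybridisations. The A copy was higher in RPL6, RPL7, RPL17 and RPL43, and the B copy in RPL2, RPL23, RPL26, RPL36 and RPL42. With ORF probes alone, 4 of 24 pairs kept 1 sign in all 8 hybridisations, of those named only RPL6 and RPL23. With upstream probes alone, 3 of 20 pairs did, of those named only RPL36 and RPL42. The median absolute difference was 0.20 for Nup170 in wild type and 0.14 for Nup157.

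RPL42, a protein of the exit site for transfer RNA, had the largest difference for Nup170 in wild type. RPL42A read 0.36 and 0.22 in the 2 hybridisations there, and RPL42B (YHR141C, chromosome 8, 381850 to 383126) read 1.07 and 0.76, so that A minus B was -0.62 (-0.71 and -0.53). The difference came to -0.56 with Nup157, -0.44 in the library labelled sir4∆ and -0.54 in that labelled yku70∆. For Nup170 in wild type it lay upstream, at -0.98, and not inside the ORF, at 0.08. A single RPL42B probe at -344 bp read 1.80 there, and 1.36, 0.74 and 1.25 for Nup157, in the library labelled sir4∆ and in that labelled yku70∆. The 4 upstream probes of RPL42A read at most 0.48 for Nup170 in wild type.

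RPL43A exceeded RPL43B by 0.42 for Nup170 in wild type (0.59 and 0.25), and by 0.18, 0.12 and 0.35 for Nup157, in the library labelled sir4∆ and in that labelled yku70∆. Inside the ORF the sign of RPL43 was turned, at -0.14 for Nup170 in wild type. RPL17A exceeded RPL17B by 0.41 for Nup170 in wild type (0.47 and 0.34), and by 0.39, 0.19 and 0.26 in the same order of libraries as for RPL43.

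RPL7A exceeded RPL7B by 0.41 for Nup170 in wild type (0.48 and 0.34) and by 0.53, 0.40 and 0.51 in that order. RPL7B has no upstream probe, and with ORF probes alone the difference was 0.13 for Nup170 in wild type and 0.14 for Nup157. The pair thus differs mainly through the upstream probe of RPL7A described above.

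RPL36, chosen after its values were seen, had the largest difference of any pair in the Nup157 library, at -1.45 (-1.44 and -1.46), against -0.32, -0.37 and -0.39 for Nup170 in wild type, in the library labelled sir4∆ and in that labelled yku70∆. The Nup157 difference was present upstream (-2.08) and inside the ORF (-1.20). Each copy has 1 upstream probe, which read -0.88 for RPL36A and 1.20 for RPL36B with Nup157. RPL36B has 3 probes in all.

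Over 24 pairs, r between the values of A and B was -0.33 to -0.06 in the 4 libraries with all probes, 0.22 to 0.41 with ORF probes alone, and, over 20 pairs with upstream probes in both copies, -0.42 to 0.02 upstream. The ORFs of the copies share sequence, so a probe may read both, which was not tested.

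**Figure D4:**
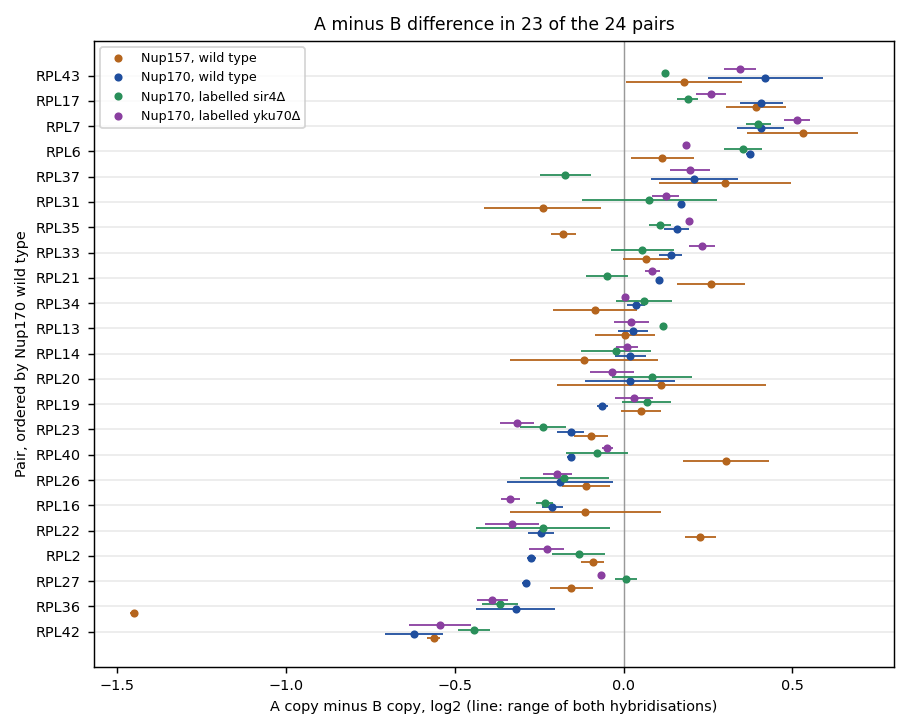
A copy minus B copy (x axis, log2) in 23 of the 24 pairs (y axis, ordered by Nup170 in wild type). Points are means of both hybridisations and lines span them, with 1 colour for each library. RPL42 is lowest for Nup170 in wild type at -0.62, RPL43 highest at 0.42, and RPL36 stands apart for Nup157 at -1.45.

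Nup157 gave lower values than Nup170 in wild type at 48 of the 53 members, against 52.2% of all genes. The median difference was -0.26 where the median over all genes was -0.02. A difference of -0.3 or lower was found at 20 members, against 15.7% of all genes, and of 0.3 or higher at 1, against 17.5%. Across the 4 pairings of hybridisations the median ran from -0.44 to -0.02, and 26 members were below 0 in all 4, against 33.3% of all genes. RPL28 was lowest, at -0.84 (-1.39 between the first hybridisations, -0.30 between the second), and RPL36A stood at -0.79 (-0.91 and -0.66). RPL36B was the highest at 0.34 (0.09 and 0.60), before RPL2A at 0.17 and RPL6B at 0.14, whose signs turned between hybridisations. The intronless large-subunit genes had a median difference of 0.01, with 3 of 26 at -0.3 or lower. Small-subunit genes had medians of -0.15 with an intron (15 of 37 at -0.3 or lower) and -0.16 without (5 of 16).

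All 4 probes of RPL28 were lower with Nup157. Upstream, at -360 and -2 bp, they read -0.42 and 0.43 with Nup157 and 0.51 and 0.96 with Nup170 in wild type. At 484 and 671 bp from the ORF start they read 0.34 and 0.52 with Nup157 and 1.47 and 1.28 with Nup170 in wild type. The libraries labelled sir4∆ and yku70∆ gave 0.96 and 1.06 and 1.07 and 1.13 at these ORF probes.

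The remaining comparisons set Nup170 libraries against each other, and 2 of them share the Nup170 wild-type library. The library labelled sir4∆ was lower than wild type at 52 of 53 members, against 49.0% of all genes, with a median of -0.20. Of the members, 7 were at -0.3 or lower, against 0.851% of all genes. The median was -0.43 between the first hybridisations and 0.02 between the second, so the difference did not exceed the spread between hybridisations. In all 4 pairings 23 members were below 0, against 15.2% of all genes. Large-subunit genes without an intron had a median of -0.21, and small-subunit genes -0.24 with an intron and -0.21 without. The shift was thus not particular to the members. RPL37A was lowest at -0.43 (-0.65 and -0.22), then RPL27B at -0.42 (-0.73 and -0.12) and RPL2B at -0.38 (-0.67 and -0.08). RPL43B was highest at 0.06, before RPL18B at -0.004 and RPL40A, a gene for a ubiquitin fusion, at -0.01.

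Upstream probes in the library labelled sir4∆ parted by hybridisation. Between 500 and 250 bp before the ORF the median was -0.02 in the first and 0.49 in the second, while in the rest of the ORF it was 0.47 and 0.64. For Nup170 in wild type these upstream medians were 0.70 and 0.47. The authors' combined ratio weights the first hybridisation at 97.7% in the library labelled sir4∆, against 48.7% to 53.1% in the others.

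The library labelled yku70∆ was lower than wild type at 51 of 53 members, against 46.2% of all genes, by a median of -0.10. None of the members reached -0.3, against 0.163% of all genes. The median over pairings ran from -0.28 to 0.06 and 8 members were below 0 in all 4, against 12.9% of all genes, a share near that of the members. RPL23A at -0.25, RPL27B at -0.24 and RPL6A at -0.24 were lowest, and RPL18B at 0.03, RPL16B at 0.01 and RPL19A at -0.0008 highest. This difference, too, stayed within the spread between hybridisations.

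Between the libraries labelled sir4∆ and yku70∆, the former was lower at 47 of 53 members, against 54.3% of all genes. The median was -0.10 (-0.22 to 0.02 over pairings), with 1 member at -0.3 or lower, against 0.434% of all genes. That member was RPL37A at -0.30 (-0.31 and -0.30), and RPL30 at -0.26 and RPL2B at -0.24 followed. RPL43B at 0.12, RPL37B at 0.07 and RPL40B at 0.04 were highest. In all 4 pairings 20 of the 53 members were below 0, against 20% of all genes. RPL37A, picked as the lowest in this difference, was among them, with pairings from -0.35 to -0.26.

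**Figure D5:**
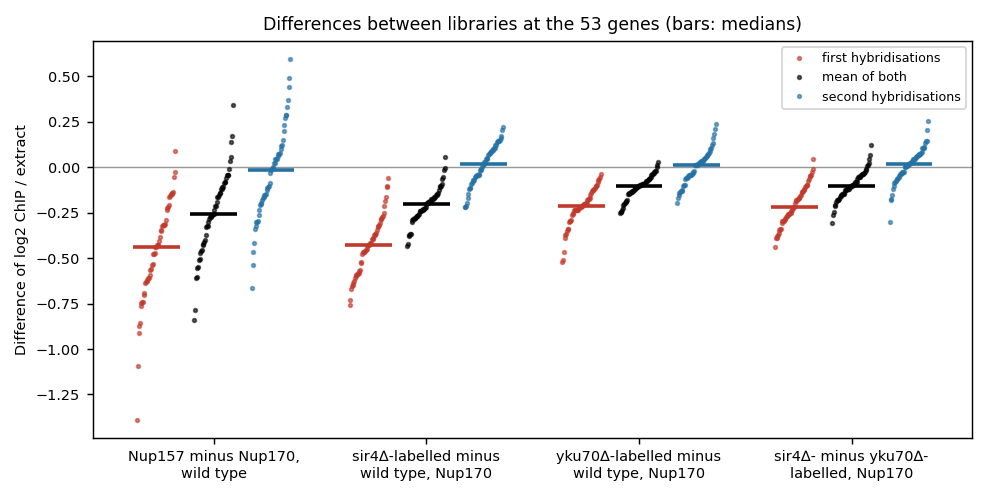
Differences of log2 ChIP over extract (y axis) at the 53 genes (points) in the 4 comparisons (x axis), between the first hybridisations (red), between the means (black) and between the second hybridisations (blue), with bars at the medians. In the comparison of the library labelled sir4∆ with wild type the median moves from -0.43 to 0.02 between hybridisations.

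The 25 members with a probe in a divergent promoter had a median of 0.60 for Nup170 in wild type and the other 28 one of 0.57. The 4 members whose upstream neighbour is also a ribosomal protein gene, RPL13A, RPL13B, RPL21A and RPL39, stood at 0.62 to 0.69. No member lay near a chromosome end, the closest being RPL32 at 39.6 kb from the outermost probe.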

How the data were processed

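Each deposited file holds 1 library on a whole-genome Agilent array, scanned as Cy5 (ChIP) and Cy3 (whole cell extract). Per the file headers, the intensity columns give foreground and background brightness and the authors' normalised values, for each of 2 hybridisations. Agilent Feature Extraction is named in the submitters' processing notes, with no version. The deposited log2 columns hold the authors' log2 ratio of normalised ChIP over extract signal. Further deposited columns of another kind (other) are the authors' marks of 0 or 1 for excluded spots and for bound regions. The build is one not given in the sources used here, so positions are those of the files. Symbols came from RefSeq, which matched 5639 of 5659 genes.

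Of 41775 probes, 295 mitochondrial ones were left out. Each hybridisation's log2 ratio was centred on its nuclear median and both were averaged. A gene value needed at least 2 probes. Differences were taken probe by probe. A probe counted as near blank when its Cy3 foreground stayed at or under a limit set at 2.6 SDs over the average of 660 blank spots. Because every group is 1 library, no p-value was computed. Values were counted at log2 0.5 in a library and 0.3 (1.23-fold) in a difference. The computation was tested on simulated data. R 4.3.3 with limma 3.58.1 gave normexp (offset 50) and loess (span 0.3) alternatives, and Python 3.11.15 with pandas 2.3.3 and numpy 2.4.6 the rest.

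The members and lists were chosen with earlier results of these data known. Members named are, in each library, the 5 highest and 3 lowest, in each difference the 3 highest and 3 lowest, the 5 pairs with the largest difference of 1 sign in both hybridisations of Nup170 in wild type, and the single-copy genes. Other genes are named where a result turns on them. Alternatives were each hybridisation alone, normexp correction, the authors' combined ratio, the intensity trend removed, the median over probes, ORF or upstream probes only, no near-blank probes, genes with 1 probe, scaling by the lower-side SD, and other thresholds. Sequence features of promoters and proteins were not analysed here. Of the members this rule names, 1 is not reported here by name, nor is its pair, though both stay in all counts and medians.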

Additional observations from a re-analysis of the deposited data

How the results depend on the processing

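The member median kept its sign in each library under every alternative tried, and 117 of 124 alternative medians of levels, differences and positions kept theirs. The exceptions were the differences between Nup170 libraries with the second hybridisation alone (0.02 for labelled sir4∆ minus wild type, 0.01 for labelled yku70∆ minus wild type and 0.02 between both) and the gap between members and intronless large-subunit genes for Nup170, given below. Of 775 alternative values of named members and pairs, 722 kept their sign. The causes of the changes below were not tested.

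Counts past the thresholds moved most. Here and below they are counts of members only. The share of all genes under each alternative was not counted, so a moved count cannot be told apart from a change over all genes. With the first hybridisation alone, the library labelled sir4∆ had 3 members at 0.5, and 39, 42, 10 and 10 members reached -0.3 for Nup157 minus Nup170 wild type, labelled sir4∆ minus wild type, labelled yku70∆ minus wild type and labelled sir4∆ minus yku70∆, with 0 at 0.3 in the first of these. The gap to intronless genes was -0.0046 for Nup170 in wild type, and the excess of the rest of the ORF over its start was 0.56 for Nup157 and 0.084 in the library labelled sir4∆. With the second hybridisation alone, 15 members reached 0.5 for Nup170 in wild type, 7 and 0 reached -0.3 in the first and the second comparison and 5 reached 0.3 in the first. The gap was -0.056 in the library labelled sir4∆ and the excess 0.17 for Nup170 in wild type.

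Normexp correction raised the medians to 0.46, 0.91, 0.61 and 0.72 (Nup157, Nup170 wild type, labelled sir4∆, labelled yku70∆). The counts at 0.5 became 22 for Nup157, 32 for labelled sir4∆ and 40 for labelled yku70∆, and those at -0.3 became 34, 28, 4 and 10. The gap became -0.44, -0.14, -0.18 and -0.24, the excess 0.32 in the library labelled yku70∆, and A exceeded B in 9 pairs for Nup170 in wild type. With the authors' combined ratio 3 members reached 0.5 in the library labelled sir4∆, and 22 and 6 reached -0.3 in its comparisons with wild type and with labelled yku70∆.

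With the intensity trend removed, 4 and 12 members reached 0.5 in the libraries labelled sir4∆ and yku70∆, 0 reached -0.3 between them, and 0 reached 0.3 for Nup157 minus Nup170, where RPL36B turned to -0.0073. In that setting, added after the data were seen for position, the excess was 0.52, 0.19 and 0.17 for Nup157, Nup170 wild type and labelled yku70∆. The median over probes gave 6 at 0.5 in the library labelled sir4∆ and 2 at 0.3 for Nup157 minus Nup170. ORF probes alone gave 0 at -0.3 between the labelled deletions and 2 at 0.3 for Nup157 minus Nup170.

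Upstream probes alone lowered the medians to 0.24 and 0.37 in the libraries labelled sir4∆ and yku70∆. The counts at 0.5 fell to 19, 1 and 9 for Nup170 in wild type, labelled sir4∆ and labelled yku70∆, those at -0.3 became 10, 15 and 3, and 2 reached 0.3 for Nup157 minus Nup170. Over the 11 pairs with at least 2 such probes in both copies, A exceeded B in 6, 6, 6 and 7, and RPL17 turned to -0.12 for Nup157.

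At log2 1.0 in a library and 0.5 in a difference the counts were 1, 1, 0 and 0, and downward 8, 0 and 0 for Nup157 minus Nup170, labelled sir4∆ minus wild type and labelled sir4∆ minus yku70∆, with 0 upward for Nup157. At 0.25 and 0.15 they were 34, 41 and 50 for Nup157, labelled sir4∆ and labelled yku70∆, downward 34, 41, 11 and 13, and upward 2 for Nup157. On the scale of each library's lower-side SD the member medians were 0.60, 2.66, 2.01 and 2.59 SDs. At 2 SDs in a library and 1 SD in a difference, thresholds chosen after the data were seen, the counts were 1, 27 and 38 for Nup157, labelled sir4∆ and labelled yku70∆, downward 48, 11 and 12, and upward 0 for Nup157.

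No paired analysis was possible because each group has 1 library. Signal over background limits few members: 2 or 3 of their probes were near blank in each library.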
